A study of Arabidopsis thaliana with 12 samples.

Results

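Introns of more than 100 and at most 250 bp whose retention differed between wild type and the splicing mutant sfps-2, or between dark and red light, are described here in Arabidopsis thaliana seedlings. They are the intron bins of that length in the authors' deposited lists of differential splicing for 4 comparisons, namely sfps-2 against wild type in the dark, sfps-2 against wild type after red light, red light against dark in wild type, and red light against dark in sfps-2. The lists hold bins with a false discovery rate under 0.05 and a change of at least 3 percentage points. There were 740 such introns among 2549 listed bins and 2110 listed introns (35.1% of the latter), in 653 host genes. The median length was 142 bp.

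All seedlings were Col-0 or sfps-2 (SFPS -/-), a knockout of SFPS in the Col-0 background, 4 days old and grown in the dark. One set of each genotype stayed in the dark and one set received continuous red light for 3 h (7 umol m-2 s-1). The 4 groups are called wild type dark, wild type red, sfps-2 dark and sfps-2 red, with 3 libraries each. RNA was total RNA freed of ribosomal RNA from whole seedlings, so incompletely spliced transcripts are part of what was sequenced, and fewer cells of a type and less RNA per cell cannot be told apart. The sources do not say whether the 3 libraries of a group came from separate cultures, and any p-value below measures only the spread between these libraries.

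In splicing, the spliceosome recognises a 5′ splice site (donor) that almost always begins with GT and a 3′ splice site (acceptor) that ends with AG, usually preceded by C or T and often followed by G. In plants, retention of whole introns is the most common kind of alternative splicing, and a retained intron often brings a stop codon into the reading frame. SFPS is the Arabidopsis relative of human SPF45, a spliceosome protein with a role in the recognition of 3′ splice sites, and it acts in phytochrome red light signalling together with the splicing factor RRC1.

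Retention is given per library as the share of boundary reads, (J1+J2)/(J1+J2+2×J3), where J1 and J2 are reads across the 5′ and 3′ exon-intron boundaries and J3 is reads across the spliced junction of that intron. Reads spliced to another donor or acceptor are not in this share. Of the 740 introns, 733 begin with GT and end with AG in the RefSeq sequence of TAIR10.1.

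The 3′ splice sites of the introns with the largest differences in both genotype comparisons are shown first. The acceptor is where introns with lower and higher retention in sfps-2 differed at the median, although single introns of the 2 kinds overlap. Each line gives the last 14 intron bases and the first 3 exon bases, and the capitals mark the last 3 bases of the intron and the first base of the exon. The 6 introns with the largest decrease in sfps-2 in the dark among those listed in both genotype comparisons were as follows.
AT5G24352, chr5:8311428-8311444, plus strand: aacatgagtttCAGAat
AT1G56500, chr1:21161963-21161979, plus strand: gagtacttacgCAGGaa
AT5G23870, chr5:8046183-8046199, minus strand: ttttgttattcAAGGct
AT3G61420, chr3:22728907-22728923, minus strand: atactggaaagTAGAtg
AT3G15520, chr3:5251477-5251493, minus strand: cgaaattgtttCAGGtg
AT5G22860, chr5:7642102-7642118, minus strand: tcatggtataaAAGTgt
The 6 with the largest increase, chosen in the same way, were the following. All 12 were picked after their values were seen.
PUB4, chr2:9847908-9847924, minus strand: attcgtaattgCAGCaa
AT1G57600, chr1:21333971-21333987, minus strand: gcgttcacttcCAGCgt
AT1G73490, chr1:27634290-27634306, minus strand: tatttcttattCAGCag
PHT4;3, chr3:17308988-17309004, minus strand: tacttttgatgTAGAtg
AT1G21610, chr1:7578038-7578054, plus strand: tattcatgctcCAGTtg
AT1G63490, chr1:23551453-23551469, minus strand: gatttacacctCAGGgg
Whole introns are shown for an intron that was lower in sfps-2 (RRC1, intron 2 of 16, minus strand, chr5:8639488-8639662), one that was higher in sfps-2 (PUB4, intron 3 of 4, minus strand, chr2:9847911-9848147) and one that was lower in red light in both genotypes (COL2, its single intron, minus strand, chr3:487798-487940). Capitals mark the first 2 and last 2 bases and the first stop codon in the frame of the upstream exon. In the RRC1 intron the stop codon TAG follows the GT directly.
RRC1: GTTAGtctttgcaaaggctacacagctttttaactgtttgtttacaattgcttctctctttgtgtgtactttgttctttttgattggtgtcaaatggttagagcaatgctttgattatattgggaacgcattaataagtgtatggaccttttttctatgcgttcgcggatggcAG
PUB4: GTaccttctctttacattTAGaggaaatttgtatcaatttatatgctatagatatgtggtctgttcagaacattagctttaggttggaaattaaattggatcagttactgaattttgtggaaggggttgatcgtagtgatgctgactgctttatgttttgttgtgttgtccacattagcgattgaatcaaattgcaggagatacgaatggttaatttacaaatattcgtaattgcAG
COL2: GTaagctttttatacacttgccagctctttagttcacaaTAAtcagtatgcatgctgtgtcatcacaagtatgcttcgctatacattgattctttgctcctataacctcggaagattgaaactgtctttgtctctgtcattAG

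The libraries had similar depth over these introns. Across the 146 introns listed with reads for all 12 libraries, a library held 61702 to 83057 reads, and 723 of the 740 had at least 10 reads in every library they were listed for. In the authors' deposited table SFPS stood at 8.04 FPKM in wild type dark and 1.83 in sfps-2 dark, and at 7.90 and 1.93 after red light. PORA, a marker of dark-grown seedlings, went from 173 to 33.9 FPKM with red light in wild type and LHCB1.1, a marker of greening cotyledons, from 7.28 to 1027 FPKM, also per the authors' deposited table. The 4 root markers looked at lay between 0.263 FPKM (PRP1) and 17.7 FPKM (SCR), and WER went from 2.33 to 7.96 FPKM with light in wild type. PRP3 was 0.869 FPKM in wild type red and 3.51 FPKM in sfps-2 red in the authors' deposited table, and PRP1 0.265 and 1.06 FPKM. The root markers with more mRNA were not higher in sfps-2 red, with WER at 8.04 and 7.05 FPKM and SCR at 17.7 and 17.2 FPKM. Whether root content has a part in the genotype differences was not tested.

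In sfps-2 in the dark, 294 introns of this length were listed, of which 172 had higher and 122 lower retention than wild type (58.5% higher, beside 64.3% of all 743 listed introns). After red light 289 were listed, 199 higher and 90 lower (68.9% higher, beside 70.7% of all 788). Among the introns that differed by at least 10 points the split was 46 higher and 49 lower in the dark (48.4% higher, beside 55.7% of all listed introns at that limit) and 52 higher and 34 lower after red light (60.5% higher, beside 62.1%). The authors chose the introns on these contrasts, so the counts are a description.

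**Figure D1:**
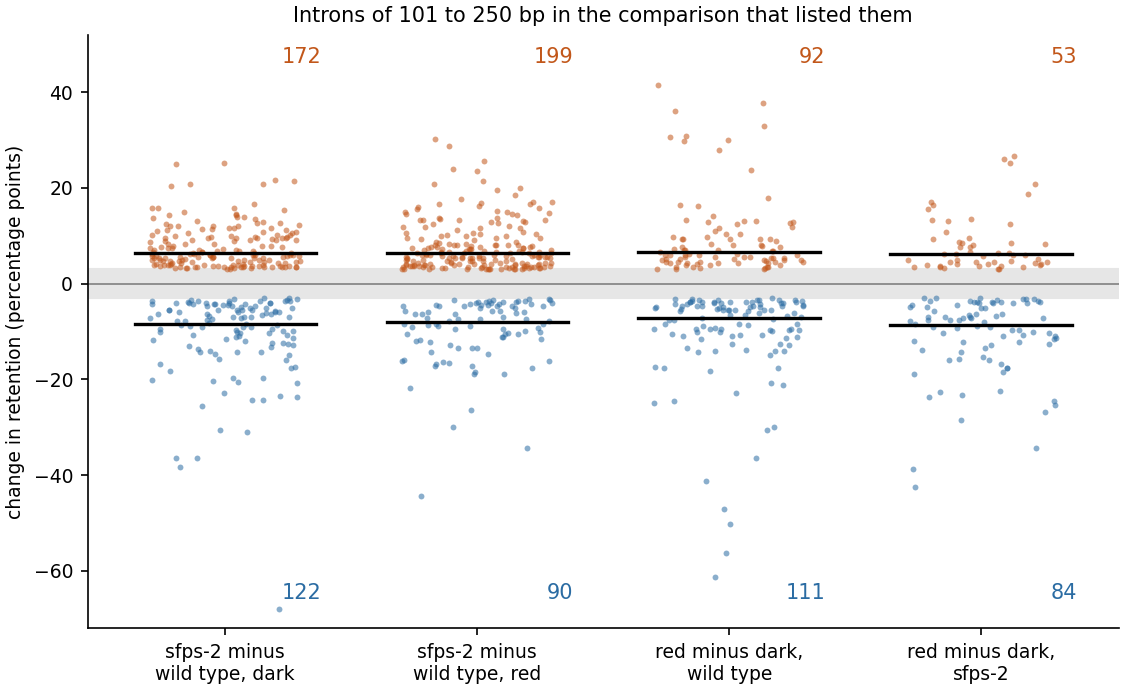
Change in retention, in percentage points, of every listed intron of this length in each of the 4 comparisons (1 point per intron, orange higher, blue lower, black bars at the medians, grey band below the 3 points of the lists, counts printed at the top and bottom). Most introns sit near the medians of 6.37 points upward and 8.37 points downward in the dark genotype comparison, and the far tail reaches further down than up.

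The median change of the introns with higher retention was 6.37 points in both genotype comparisons, and that of the introns with lower retention was -8.37 points in the dark and -8.10 points after red light. All 3 sfps-2 libraries lay outside the range of the 3 wild type libraries in 260 of the 294 introns in the dark (88.4%, beside 85.2% of all listed bins) and in 245 of 289 after red light (84.8%, beside 84.8%). Shares computed at the 5′ boundary alone and at the 3′ boundary alone changed in the same direction in 287 and 285 introns. The introns with lower retention in sfps-2 started from a median of 17.5, 19.0 and 21.2% in the wild type dark libraries and were at 9.29, 8.43 and 9.19% in sfps-2 dark. Those with higher retention went from 7.37, 8.05 and 7.59% to 14.7, 13.5 and 14.4%.

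On the log2 scale the reads across the boundaries changed more than the reads across the junctions. Median retention was 10.8 and 12.5% in wild type and sfps-2 in the dark, and 8.94 and 11.9% after red light. Boundary reads are thus the smaller number, so this order follows largely from the scale and is not read as a result. After scaling each library to the reads over all listed bins of the comparison, introns with lower retention in sfps-2 dark had a median log2 change of -0.79 in boundary reads and 0.25 in junction reads, and introns with higher retention had 0.75 and -0.22. After red light the 4 medians were -0.75 and 0.31, and 0.90 and -0.18. Boundary reads went down in 112 of 119 introns with lower retention in the dark and up in 157 of 171 with higher retention, counting introns with at least 10 reads per library.

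The introns that were lower and those that were higher in sfps-2 had different 3′ splice sites. Acceptors were scored over 17 bases (14 of the intron and 3 of the exon) by adding up log2 odds over the positions, with base frequencies taken from all annotated introns, so that a low score is a weak match to the usual site. All 46114 RefSeq introns of this length had a median score of 7.84. In the dark comparison the introns with lower retention had a median of 5.67 (quartiles 4.1 and 7.74) and those with higher retention 8.38 (6.25 and 9.97). After red light the medians were 6.52 and 8.15. Introns do not replicate a condition, so these medians carry no test.

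The base before the final AG and the first base of the exon carried part of that difference. The intron ended in AAG in 26 of 122 introns with lower retention in the dark (21.3%), in 4 of 172 with higher retention (2.33%) and in 7.80% of all annotated introns of this length. The next exon began with G in 27.0% of the introns with lower retention, in 55.8% of those with higher retention and in 50.1% of all. It began with T in 32%, 9.88% and 13.1%. After red light AAG ends made up 18.9% of lower and 4.52% of higher introns, and G began the exon in 30.0% and 57.3%.

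The donors did not separate the groups in this way. Median donor scores, over 9 bases, were 7.21 for lower and 6.76 for higher introns in the dark, 6.73 and 7.26 after red light, and 7.01 for all annotated introns of this length. GC content was 32.7% and 33.7% at the median in the dark, beside 32.8% for all.

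**Figure D2:**
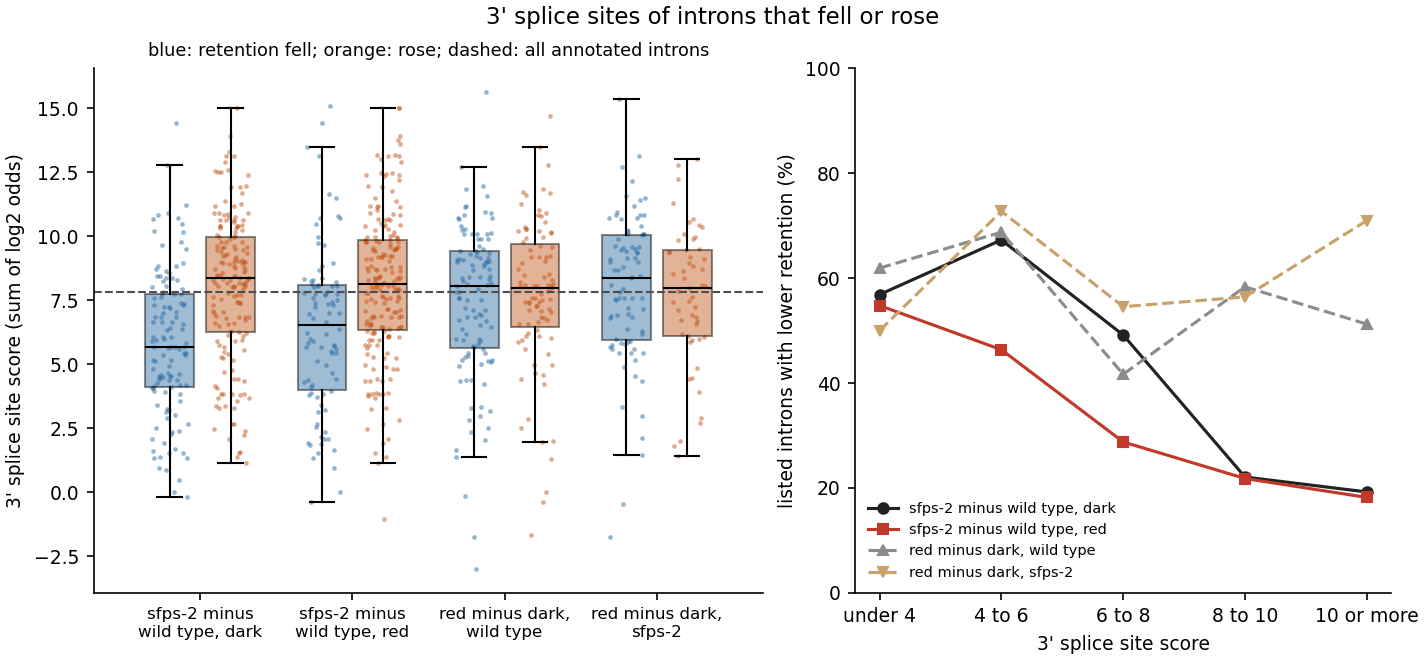
Left, 3′ splice site score (sum of log2 odds) of introns with lower (blue) and higher (orange) retention in each comparison (points are introns, boxes the quartiles with the median, whiskers 1.5 times the quartile range, dashed line the median of 7.84 of all annotated introns of this length). Right, share of the listed introns with lower retention in each class of score. In the genotype comparisons the blue boxes sit below the orange ones and the share falls from 56.9% and 54.8% under a score of 4 to 19.2% and 18.2% at 10 or more, while the light comparisons show no such order.

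Ordered by acceptor score, the share of listed introns with lower retention in sfps-2 dark was 56.9% (29 of 51) under a score of 4, 67.3% from 4 to 6, 49.2% from 6 to 8, 22.1% from 8 to 10 and 19.2% (10 of 52) at 10 or more. After red light the shares were 54.8, 46.3, 28.8, 21.8 and 18.2%. For red light against dark in wild type the shares were 61.9, 68.8, 41.7, 58.3 and 51.2%. The median score there was 8.05 for lower and 7.97 for higher introns. In sfps-2 the light comparison gave 8.39 and 7.97. Introns with lower retention after light in wild type had medians of 16.7, 13.7 and 18.7% in the dark libraries. Whether starting retention has a part in the order by acceptor score was not tested.

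The pattern was present in introns listed in a single comparison, which share no intron between the dark and the red lists. Introns listed only in the dark genotype comparison had medians of 5.67 (74 lower) and 8.52 (98 higher), and those listed only after red light 7.16 (46 lower) and 8.25 (130 higher). It was not particular to this length. Listed introns of 100 bp or less had medians of 6.01 and 7.72 in the dark, and introns over 250 bp 6.47 and 8.17.

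Some of these shares describe the use of an acceptor as much as whole introns. In 5 listings an exon bin that the authors list as an alternative 3′ splice site in the same comparison begins where the intron ends, and in 4 of them both bins share the junction. The clearest was GSTZ1, a zeta class glutathione transferase, intron 3 of 9 (chr2:629354-629517, plus strand), whose acceptor is shown with the same capitals.
GSTZ1, chr2:629504-629520, plus strand: tcttgtgttgaAAGTtt
Its retention share was 43.2, 44.1 and 42.9% in wild type dark and 8.02, 6.70 and 5.82% in sfps-2 dark, groups far apart. Reads spliced to this acceptor numbered 108, 76 and 94 in wild type dark and 774, 494 and 736 in sfps-2 dark, whereas reads spliced to the acceptor 21 bases downstream numbered 898, 796 and 881 and 552, 333 and 384. With both junctions in the denominator the share was 6.91% ± 0.57 (SD, n = 3) in wild type dark and 4.29% ± 0.49 (SD, n = 3) in sfps-2 dark, a far smaller difference that kept its direction. MMH-1 intron I007 turned around, from 40.3% ± 3.3 in wild type dark and 72.7% ± 12 in wild type red (SD, n = 3 each) to 13.5% ± 3.0 and 10.2% ± 1.9 with both junctions.

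RefSeq annotates a second acceptor for 13.1% of the introns with lower retention in the dark and 11.6% of those with higher retention, beside 7.08% of all introns of this length. Without the introns that have an annotated second acceptor or donor, the median acceptor scores were 5.63 (100 lower) and 8.29 (143 higher) in the dark and 6.98 (78) and 8.03 (180) after red light. Junctions that RefSeq does not annotate and the lists do not hold are not analysed here. RefSeq also annotates a transcript that keeps the intron for 24.6% of lower, 11% of higher and 8.45% of all introns.

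Of the 739 introns matched to RefSeq, 664 lie between coding exons, 54 in 5′ UTRs, 13 in 3′ UTRs and 8 in noncoding RNAs. An in-frame stop codon occurs in 94.1% of the 664, beside 93.2% of all coding introns of this length, and 33.4% of the 739 have a length divisible by 3, as do 33.4% of all.

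The 2 genotype comparisons share no library. They had 103 of these introns in common, 35% of the dark list and 35.6% of the red list, and all 103 changed in the same direction, 63 higher and 40 lower in sfps-2. Pearson's r between the changes was 0.952 over the 103 introns, a description, since introns of a gene and of a library are not independent and both lists hold only changes of 3 points or more. The median absolute change was 9.45 points in the dark and 9.23 after red light, and the median absolute difference between them was 2.0 points.

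Among the introns with lower retention in both, AT5G24352 (a WNK-like protein kinase, intron 2 of 4) had retention of 73.9, 64.1 and 50.4% in wild type dark and 23.4, 32.6 and 16.1% in sfps-2 dark. After red light it stood at 54.5, 62.6 and 65.3% and 30.3, 22.4 and 26.9%. The genotypes did not overlap in either light state. Among the introns whose acceptors are shown first, RefSeq annotates a second acceptor for this one and those of AT1G73490 and PHT4;3. AT5G22860, a serine carboxypeptidase of the S28 family whose acceptor ends in AAG followed by T, had 26, 28.9 and 25.1% in wild type dark against 3.61, 3.17 and 8.59% in sfps-2 dark. After red light the values were 26.9, 24.4 and 30.9% against 10.7, 7.17 and 8.55%, again apart. AT5G23870, a pectin acetylesterase with an AAG acceptor followed by G, had 43.2, 44.5 and 49.6% against 22.1, 22.8 and 18.5% in the dark. Its change was -24.4 points in the dark and -17.6 points after red light.

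Among the introns with higher retention in both, PUB4, a U-box ubiquitin ligase, had 11.3, 19.1 and 15.4% in wild type dark and 43.8, 38.9 and 37.1% in sfps-2 dark. After red light it had 15.1, 9.51 and 16.9% and 36.6, 39.0 and 42.0%. The change was 25.3 points in the dark and 25.6 points after red light, with no overlap of the genotypes. In the authors' deposited table PUB4 mRNA was lower in sfps-2, 23.3 and 12.6 FPKM in the dark (q = 0.00116) and 20.9 and 10.5 FPKM after red light (q = 0.00138). AT1G21610, of a wound-responsive family, had 4.58, 10.2 and 12.4% against 18.7, 34.6 and 32.7% in the dark and 12.2, 8.31 and 14.8% against 41.8, 30.0 and 34.4% after red light. PHT4;3, a phosphate transporter, rested on few reads, at least 39 in its shallowest library, and had 8.64, 11.8 and 5.00% against 25.7, 41.8 and 23.1% in the dark.

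**Figure D3:**
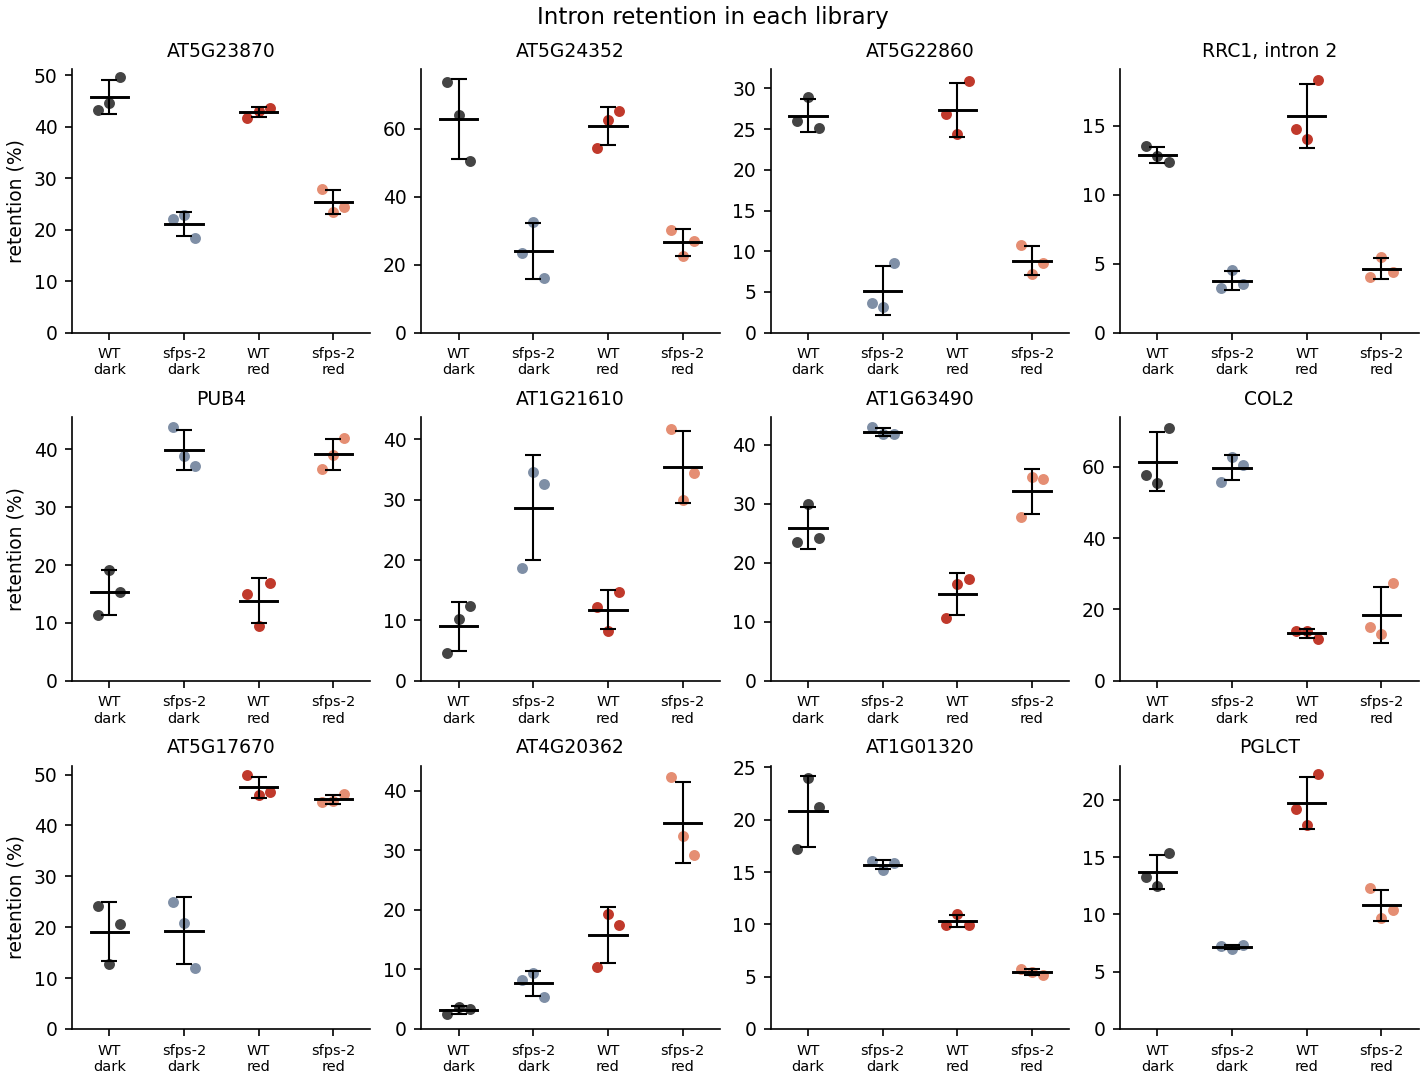
Retention in percent of 12 introns named in the text in each library (points), with the mean and SD of the 3 libraries of a group (bars). In PUB4 and AT1G21610 the sfps-2 libraries sit above wild type in both light states, in AT5G24352, AT5G22860 and RRC1 below it, and in COL2 and AT5G17670 the red libraries stand apart from the dark ones in both genotypes.

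Other large differences were listed in 1 light state only. After red light AT4G38225, annotated as a glycerol kinase, had 87.1, 90.5 and 77.8% in wild type and 40.3, 40.4 and 43.1% in sfps-2. LAF3, an amidohydrolase that acts in phytochrome A signalling, had 40.5, 52.3 and 52.7% against 24.6, 21.9 and 20.7%, and its acceptor score was 2.55. MAF4, a MADS-box relative of FLC that represses flowering, had 38.1, 30.4 and 39.6% against 52.4, 67.3 and 81.8%, from 42 reads or more per library. In all 3 the genotypes did not overlap. Some other large changes went against the order by acceptor score. AT5G62950 had a change of -30.5 points in sfps-2 dark with a score of 11.2. AT4G00670 had -30.0 points in sfps-2 red with a score of 8.67, and AT1G42430 30.3 points in sfps-2 red with 2.82. Listed in both light states, AT1G56500, a haloacid dehalogenase-like hydrolase, had 46.8, 59.2 and 40.8% against 22.7, 15.1 and 23.1% in the dark, and it was lower after red light too (44.3, 48.8 and 51.8% against 29.2, 35 and 32.1%). The largest listed difference of all, -68.1 points in AT5G48400, came with a library that held 0 reads and is not interpreted.

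Fewer of these introns were listed for red light, and the listed ones held fewer reads in their shallowest library. The shallowest library held a median of 173 and 134 reads per intron in the light comparisons, in wild type and sfps-2. In the genotype comparisons it held 333 in the dark and 290 after red light. These medians describe the introns that each comparison listed, and the libraries themselves had similar depth. Whether read number has a part in the smaller counts was not tested. Among introns of 100 bp or less, 316 were listed for light in wild type, beside 173 and 216 for genotype in the dark and after red light. In wild type 203 were listed, 92 higher and 111 lower after light (45.3% higher, beside 50.6% of all 699 listed introns), and in sfps-2 137 were listed, 53 higher and 84 lower (38.7%, beside 44.4% of all 426). At 10 points the split in sfps-2 was 13 higher and 36 lower (26.5% higher, beside 35.8% of all listed introns at that limit). The red and dark libraries did not overlap in 176 introns in wild type (86.7%, beside 78.8% of all listed bins) and in 107 in sfps-2 (78.1%, beside 79.3%). The light comparisons share no library with each other, but each shares 3 libraries with each genotype comparison.

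The light comparisons had 45 introns in common, 22.2% of the wild type list and 32.8% of the sfps-2 list. Of these 34 were lower and 10 higher after light in both genotypes, and Pearson's r between the changes was 0.881. COL2, a CONSTANS-like B-box protein, had retention of 57.8, 55.6 and 70.8% in wild type dark and 13.9, 14.1 and 11.9% in wild type red, and 55.8, 62.7 and 60.5% in sfps-2 dark and 15, 13.1 and 27.3% in sfps-2 red. Every red library was below every dark library. COL2 mRNA went from 3.06 to 46.1 FPKM in wild type and from 3.79 to 35.5 FPKM in sfps-2 in the authors' deposited table.

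In the other direction, the 3′ UTR intron of CHLM, the methyltransferase of the magnesium branch of chlorophyll synthesis, had 13.1, 12.1 and 13.3% in wild type dark and 41.0, 41.7 and 44.9% in wild type red. In sfps-2 it had 14.6, 17.4 and 11.3% and 37.1, 44.0 and 35.9%. AT5G17670, an alpha/beta-hydrolase, went from 24.1, 12.7 and 20.5% to 49.9, 46 and 46.6% in wild type and from 25, 20.7 and 12.1% to 44.5, 44.8 and 46.2% in sfps-2. Both introns were higher in every red library. CHLM and the 2 genes that follow were chosen after their values were seen. Chloroplast beta-amylase CT-BMY, which breaks down starch, had 20, 24.3 and 16.4% in wild type dark and 4.76, 4.49 and 6.95% in wild type red. The calcium-sensing thylakoid protein CaS had 20, 26 and 23.6% and 2.72, 2.40 and 3.89%.

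**Figure D4:**
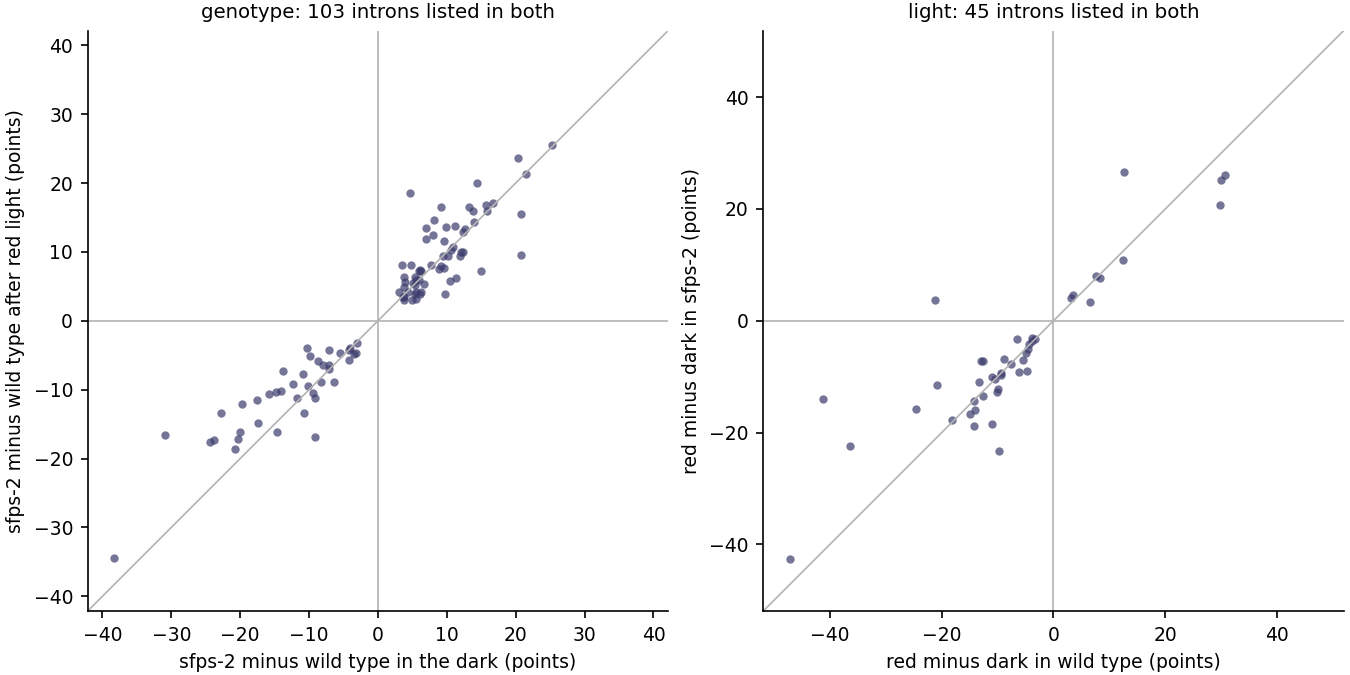
Left, change in retention in sfps-2 in the dark (x axis) and after red light (y axis), in percentage points, for the 103 introns listed in both. Right, change with red light in wild type (x) and in sfps-2 (y) for the 45 introns listed in both, with the diagonal drawn in grey. Points lie along the diagonal, with 103 of 103 in the quadrants of equal sign on the left and 44 of 45 on the right.

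The exception among the 45 was ATH1, a homeobox gene, in a 5′ UTR intron. It had 30.8, 25 and 23.8% in wild type dark, 6.21, 6.85 and 5.47% in wild type red, 7.69, 4.35 and 0% in sfps-2 dark and 5.44, 8.60 and 9.52% in sfps-2 red. Wild type dark stood above all other groups, while the 2 sfps-2 groups overlapped. The shallowest library held 8 reads, counted with each junction read as 2.

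Whether light acts on introns that had been chosen by genotype can be tested, because the mean light contrast over both genotypes was not used to choose them. The spread between the same libraries did enter the choice, so the p-values of this test and of its reverse are not independent of it. Over the 387 bins of any kind listed in both genotype comparisons, limma on the log2 odds of retention called 31 for light at a Benjamini-Hochberg adjusted p under 0.05 (8.01%), and 7 of the 103 introns of this length (6.80%). Of the 7, 3 were higher (beside 3.62% of all bins called higher) and 4 lower (beside 4.39%). The share was near that background. Of the 103, 16 had an unadjusted p under 0.05.

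The most certain was AT1G01320 (a tetratricopeptide repeat protein, 5′ UTR intron), with 17.2, 24 and 21.2% in wild type dark, 9.97, 10.9 and 9.93% in wild type red, 16, 15.2 and 15.9% in sfps-2 dark and 5.72, 5.46 and 5.13% in sfps-2 red. It fell with light by 1.44 on the log2 odds scale (SE 0.119, limma adjusted p = 3.1e-05). The noncoding RNA gene AT4G20362 rose by 2.59 (SE 0.233, limma adjusted p = 3.9e-05), from 2.46, 3.66 and 3.34% to 10.4, 19.3 and 17.4% in wild type and from 8.19, 9.46 and 5.33% to 42.2, 32.4 and 29.3% in sfps-2. These are the only 2 of the 740 listed in all 4 comparisons, so their light response had been listed already.

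AT4G38280, a hemolysin-III-like membrane protein, rose by 0.88 (limma adjusted p = 4.9e-04) and PGLCT, the plastid glucose translocator, by 0.63 (limma adjusted p = 0.00853). PGLCT, in a 5′ UTR intron that ends in AAG followed by T and has an acceptor score of -0.01, had 13.3, 12.5 and 15.4% in wild type dark and 7.24, 7.00 and 7.31% in sfps-2 dark. Both introns are also listed in the wild type light comparison, so their light response was not independent of the lists. With light PGLCT stood at 19.2, 17.8 and 22.2% and 12.3, 9.65 and 10.4%. AT1G63490, a jumonji-domain protein, fell by 0.82 (limma adjusted p = 0.0101), from 23.5, 29.9 and 24.2% to 10.7, 16.4 and 17.2% in wild type and from 43.0, 41.8 and 41.8% to 27.8, 34.6 and 34.2% in sfps-2. The call was lost with reads of the 5′ boundary only (limma adjusted p = 0.125). INO80, a chromatin remodelling ATPase named after its value was seen, fell by 0.61 (limma adjusted p = 0.0468), and AT3G22845, a p24 family protein, by 0.59 (limma adjusted p = 0.0408), a call that most fits leaving out a library did not keep.

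The reverse test asked whether genotype acts on introns chosen by light. Of 168 bins listed in both light comparisons limma called 15 (8.93%), and 3 of the 43 introns of this length with at least 10 reads in all libraries (6.98%), 2 higher (beside 5.95% of all bins) and 1 lower (beside 2.98%), with 8 of 43 at an unadjusted p under 0.05. AT4G20362 was higher in sfps-2 by 1.43 on the log2 odds scale (SE 0.246, limma adjusted p = 0.00628) and AT1G01320 lower (change of -0.74, SE 0.134, limma adjusted p = 0.00656). Both are also listed in the genotype comparisons, so their genotype difference had been listed already. The fatty acid hydroxylase FAH1 was higher by 0.60 (SE 0.139, limma adjusted p = 0.0248), with 4.4, 3.5 and 4.14% in wild type dark, 7.34, 6.49 and 7.51% in wild type red, 6.02, 5.67 and 6.51% in sfps-2 dark and 8.74, 9.93 and 12.2% in sfps-2 red. The FAH1 call was lost without wild type dark replicate 2, wild type red replicate 2, sfps-2 dark replicate 1 or sfps-2 dark replicate 3.

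Of 45 splicing genes in a list, 35 have an intron of this length and 4 of these host a listed one (11.4%, beside 3.86% of all 16905 genes with an intron of this length). The lists were chosen with earlier results known, so nothing is read from these shares. The 5 introns of the 4 genes were lower in sfps-2. RRC1, the splicing factor that acts with SFPS, had 2 of them. Intron 2 had 13.5, 12.8 and 12.3% in wild type dark and 3.24, 4.55 and 3.52% in sfps-2 dark, and 14.7, 14 and 18.3% and 4.02, 5.46 and 4.4% after red light, always apart. Intron 5 had 10.3, 5.58 and 7.96% and 3.87, 4.09 and 3.71% in the dark. That intron has 120 bases and no in-frame stop codon.

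The SR protein gene SCL33 had 66.8, 64.2 and 73.3% in wild type dark and 59.4, 54.5 and 52.5% in sfps-2 dark, and 56.0, 57.7 and 49.7% in wild type red. SR45a had 29.9, 29.5 and 28.6% in wild type dark against 19.5, 22.2 and 16.1%, and RS2Z32 18.1, 16.4 and 23.0% against 14.1, 12.1 and 12.3%. The genotypes were apart in all 3. RefSeq annotates a second acceptor for the SR45a intron and a second donor for the SCL33 intron, which begins with GC. Whether a switch of site has a part in their shares was not tested. At least 2 splicing genes outside the list had higher values in sfps-2. LSM6A, a small nuclear ribonucleoprotein, had 4.39, 9.90 and 7.26% in wild type dark and 19.7, 22.3 and 20.1% in sfps-2 dark, and the LUC7-related AT5G17440 had 16.7, 15.8 and 22.3% and 29.0, 28.1 and 35.7%. Both were named after their values were seen, and both were also listed as higher after red light. RRC1 mRNA was higher in sfps-2, 16.6 and 29.1 FPKM in the dark in the authors' deposited table (q = 0.00116).

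Clock genes hosted 6 introns in 4 of 25 genes (4 of the 20 with an intron of this length). PRR7, a repressor of the morning genes, had 33.3, 40.0 and 41.6% in wild type dark against 24.7, 22.4 and 26.2% in sfps-2 dark, and a change of -7.31 points after red light. The other clock introns were lower with light. LHY, the morning MYB factor, hosted 3, of which I012 went from 11.5, 9.5 and 15.2% to 2.91, 1.31 and 2.82% in wild type. LNK2 (AT3G54500), a coactivator of clock MYB factors, had 30.3, 28.5 and 29.8% and 21.0, 19.7 and 14.9%, and with the junction 14 bases away in the denominator 8.5% ± 1.2 and 4.1% ± 1.0 (SD, n = 3 each). RVE8, a MYB activator, had a change of -5.80 points in wild type. RefSeq annotates a second acceptor for the RVE8 and LNK2 introns.

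Of 38 light signalling genes, 2 hosted an intron (6.25% of the 32 with an intron of this length). PIF3, the phytochrome-interacting transcription factor, had 11.9, 10.4 and 12.1% in wild type red and 6.61, 6.96 and 6.35% in sfps-2 red. PHYD, a phytochrome, was higher after light in sfps-2, from 3.75, 1.02 and 2.16% to 7.25, 3.53 and 7.94%, groups that overlap. Of 13 RNA decay genes, 12 have an intron of this length and 2 hosted one (16.7%). UPF2, which acts in nonsense-mediated decay, had 10.3, 8.96 and 11.9% in wild type dark and 4.53, 5.03 and 3.72% in sfps-2 dark. XRN4, the cytoplasmic 5′ to 3′ exoribonuclease, had 10.1, 9.83 and 6.48% in wild type red and 14, 12.3 and 17% in sfps-2 red. Of 41 photosynthesis and chlorophyll genes, 24 have an intron of this length and 2 hosted one (8.33%), both listed as lower after light in both genotypes. ELIP1, a light-induced thylakoid protein, had 0, 9.09 and 13.3% in wild type dark and 0.703, 0.801 and 0.790% in wild type red, groups that overlap, and its shallowest library held 30 reads. In sfps-2 it had 5.17, 2.49 and 12.8% and 1.65, 0.860 and 3.00%, which overlap too. The magnesium chelatase subunit CHLI1 went from 7.46, 4.4 and 5.99% to 2.70, 2.64 and 2.45% in wild type.

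The words of their annotation were counted in the 653 host genes and in 15919 genes with an intron of this length. This background is not the 16905 genes used beside the gene lists, so the shares of the 2 are not alike. Kinases made up 5.82% of both, transcription factors 5.21% and 5.07%, and RNA-binding, helicase or splicing proteins 2.76% and 2.34%. Transporters and channels made up 3.06% and 2.29%, and ubiquitin, U-box, F-box or RING proteins 2.91% and 4.5%. Of the 653 hosts, 69 had at least 2 of the introns. In the dark genotype comparison 21 hosts had more than 1 listed, and in 18 of them the introns moved in the same direction, as in 15 of 18 after red light. AT3G61420, a BSD-domain protein, was mixed in both. Introns of a gene share its reads and are not independent.

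Host mRNA, in the authors' deposited tables, was higher with a q under 0.05 and a fold of at least 1.5 in 50 of 93 hosts of introns with lower retention in red light in wild type, beside 14.9% of all genes tested (5.82% were lower), and in 38 of 77 in sfps-2, beside 12.4% (8.92% lower). Hosts of introns with higher retention in red light also had higher mRNA above that background, 25 of 81 in wild type (30.9%) and 18 of 52 in sfps-2 (34.6%). Among hosts of introns with higher retention in sfps-2, 12 of 157 had lower mRNA in the dark, beside 1.95% of all genes (5.19% were higher), and 14 of 179 after red light, beside 3.19% (3.26% higher). Among hosts of introns with lower retention in sfps-2, 11 of 110 had higher mRNA in the dark (10%) and 6 of 81 after red light (7.41%). In each light state 3 of these hosts had lower mRNA. These are the contrasts that chose the introns, and no test was made.

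At the limits of the choice, the shortest introns of the set were LHY I011 (-3.63 points in sfps-2 with light) and AT1G08900 (5.33 points in sfps-2 dark), and just outside, at 100 bp, stood RAD51D (-11.8 points in sfps-2 red) and mtLPD1 (21.7 points with light in wild type). At 250 bp stood AT1G58807 and AT1G58848 (5.99 and 11.8 points with light in wild type), near-identical disease resistance genes whose reads are uncertain, and just above that length, AT5G25270 (6.56 points) and AT2G47410 (-9.78 points), both in sfps-2 dark. The smallest listed changes were close to 3 points in every comparison, for example 3.00 points in SAC3A in sfps-2 dark.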

How the data were processed

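Per the labels' protocols, stranded libraries were made from total RNA depleted of ribosomal RNA. Per the submitters' processing notes and design text, the tools were FastQC, TopHat2 (genome TAIR10), Cufflinks for expression and ASpli for splicing, their versions not given in the sources used here. The authors' deposited read counts per library (J1, J2, J3) cover only bins that passed their FDR of 0.05 and 3 points, and others were not analysed here. The deposited fraction of retained reads per group equalled the share recomputed from the counts summed over its 3 libraries. FPKM and p-values or q-values are the authors', 1 per group or gene. Per the file headers, 0 columns of single samples were left unmapped.

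Tests used limma 3.58.1 in R 4.3.3 on the log2 odds of retention, adding 0.5 to each read number, with at least 10 reads in each of 12 libraries, Benjamini-Hochberg over all bins fitted, and edgeR 4.0.16 as an alternative. Both were run on simulated data with planted changes far larger than the median absolute changes of these introns. Those medians were 0.28 log2 odds in the genotype test and 0.17 in the light test. The simulation therefore says nothing about changes of that size. Exact tests of 3 against 3 libraries cannot go below 0.1. Splice sites were read from RefSeq TAIR10.1 by coordinates, with 739 of 740 introns matched. The genes named come from the largest changes per comparison with at least 20 reads per library, of which some are left out. Named too are members of 5 gene lists (162 genes), the smallest p in each test, opposite signs and the limits of the choice. Where the text says so, others were named after their values were seen. The introns, lists and rules were chosen with earlier results of these data known.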

Additional observations from a re-analysis of the deposited data

How the results depend on the processing

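The count of introns called for light, 7, was 5 to 8 without each library in turn, and 5 to 10 over all settings, with 10 in edgeR's quasi-likelihood test. The count called for genotype, 3, was 5 with edgeR (2 higher and 3 lower) and 2 to 5 without each library in turn, the 5 arising without wild type red replicate 1. With the replicate number as a block the counts were 7 and 4, but the numbers do not pair the libraries: the correlation of deviations between libraries of the same number ranged from -0.50 to 0.39 in the light test, with a median of 0.00, so they share only a number. No count, median or fitted change in these tests turned in sign under the settings listed here. The listed change of MMH-1 I007 did in its means once the second junction was counted, from 40.3 and 72.7% to 13.5 and 10.2%, but the groups then overlapped. The call of AT3G22845 was lost with reads of the 3′ boundary only and in 10 of the 12 fits that left out a library. The call of AT1G63490 was lost with 5′ boundary reads only (limma adjusted p = 0.125) and that of FAH1 with either boundary alone. With an alternative of 10 points the share of introns with higher retention went from 58.5% to 48.4% in the dark genotype comparison and from 38.7% to 26.5% for light in sfps-2. The median retention of the introns in sfps-2 red, 11.1%, was 10.8% with reads summed over libraries. The leave-one-out values of these medians were added after seeing the data. Annotated introns of genes with at least 1 FPKM had a median acceptor score of 7.94, beside 7.84 for all. Depth limits introns with few reads: 17 of the 740 had fewer than 10 reads in some library, and shares cover counting error and library spread only.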
